A study of Mus musculus with 12 samples.

Results

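The genes described here are those of antigen presentation by major histocompatibility complex (MHC) class II molecules, in liver and quadriceps muscle of C57BL/6 mice at 4 weeks of age. The list named 7 genes, H2-Aa, H2-Ab1, H2-Eb1, H2-DMa, H2-DMb1, Cd74 and Ciita, and the members were all probe sets that the array annotation assigns to a single one of them. This gave 14 probe sets for 6 of the 18193 genes with a probe set of their own (H2-Aa 4, H2-Ab1 3, Ciita 3, H2-DMa 2, H2-Eb1 1 and Cd74 1). H2-DMb1 was represented by 2 probe sets that it shares with its neighbour H2-DMb2, so no value is given for it. The genes were chosen by function but also with measured values in view, since the liver difference of H2-Aa between the diets was known, so the differences between diets below are descriptions of these samples.

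Pregnant dams ate a normal protein diet with 20% casein throughout gestation, drinking plain water (NP) or water with 1% taurine (NP+tau). Taurine is a sulphur-containing amino acid that is not built into proteins. The animals measured were their C57BL/6 offspring, which thus met the taurine through the mother. Each of the 4 groups (liver NP, liver NP+tau, muscle NP and muscle NP+tau) held 3 arrays, no 2 pups shared a mother, and each animal gave both tissues. The tissues matched their labels: a list of hepatocyte genes had mean log2 levels of 14.43 to 14.56 in the liver samples, and a list of muscle fibre genes had means of 14.56 to 14.59 in the muscle samples.

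Class II molecules display peptides from material that a cell has taken up, and CD4+ T cells read them. They are carried mainly by professional antigen-presenting cells, namely B cells, dendritic cells and macrophages, which in the liver include the Kupffer cells that line the sinusoids. Hepatocytes and resting muscle fibres normally carry little or none. The α and β chains meet in the endoplasmic reticulum on the invariant chain, which steers them to the endosome, where cathepsins digest the chain down to a fragment that H2-DM then exchanges for peptide. In C57BL/6 mice the H2-Ea gene makes no α chain, so the I-A molecule, made by H2-Aa and H2-Ab1, is the class II product at the cell surface although H2-Eb1 is transcribed. In a bulk sample, fewer cells of a type and less RNA per cell cannot be told apart.

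Class II promoters share a module just before the transcription start, made of an X box that the RFX complex binds, a cyclic AMP response element (CRE)-like X2 box bound by CREB, and a Y box bound by NF-Y. CIITA, the product of Ciita, does not bind DNA but docks on these factors. The stretches from 110 to 11 bases before the annotated start are shown for 4 genes that hold at least 1 of the motifs there, to let their layout be compared, 5′ to 3′ on the strand of the gene, from RefSeq on build GRCm38.p6. H2-Aa lies at chr17:34287834-34287933 on the minus strand, and H2-Eb1 at chr17:34305757-34305856, H2-DMb1 at chr17:34153081-34153180 and H2-Ob at chr17:34238795-34238894 on the plus strand. Capitals mark matches on either strand to the X1 box consensus, TGACGTCA (CRE), CTGATTGG (Y box) and ATTGG (the inverted CCAAT core, which the Y box contains).
H2-Aa: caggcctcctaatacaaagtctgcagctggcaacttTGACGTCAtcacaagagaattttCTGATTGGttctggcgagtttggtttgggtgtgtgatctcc
H2-Eb1: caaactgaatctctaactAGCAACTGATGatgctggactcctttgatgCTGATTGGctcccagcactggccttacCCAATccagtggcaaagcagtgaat
H2-DMb1: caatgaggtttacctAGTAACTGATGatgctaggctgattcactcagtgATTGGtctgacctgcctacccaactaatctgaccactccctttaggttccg
H2-Ob: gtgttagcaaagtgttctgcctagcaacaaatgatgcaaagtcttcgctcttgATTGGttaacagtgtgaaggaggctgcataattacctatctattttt

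The Y box of H2-Aa spans bases 51 to 44 before the start and that of H2-Eb1 bases 62 to 55. H2-Eb1 and H2-DMb1 carry an X1 box match at bases 92 to 82 and 95 to 85, upstream of their ATTGG cores. Among 32851 RefSeq promoters searched over the 250 bases before the start, 3.83% held the Y box, 33.8% the ATTGG core, 0.816% the X1 box consensus and 1.55% the CRE. The motif letters came from general knowledge of class II promoters, so a match is a description of the sequence and not evidence of a bound site. RefSeq promoters were matched for 8 of 11 class II genes looked for. Of those not shown, H2-Oa held a Y box at bases 46 to 39 and an X1 box match at bases 141 to 131. H2-Eb2 held a Y box at bases 103 to 96 and an X1 box match at bases 133 to 123. H2-DMb2 held an ATTGG core at bases 90 to 86. The member H2-DMa is not shown. Its searched window held none of the X1 box, Y box and CRE matches and only an ATTGG core at bases 198 to 194. That window began at base 34125268, inside the annotated span of the gene (34119693 to 34139101). Matches before another start of H2-DMa are therefore not known. H2-Ob, which is shown, is not a member. H2-Ab1, H2-Ea and Ciita had no entry.

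The H2 genes lie together on chromosome 17 (build GRCm38.p6), where H2-Ab1 (34263227 to 34269418), H2-Aa (34282744 to 34287823) and H2-Eb1 (34305867 to 34316674) are neighbours. Ciita is on chromosome 16 (10480014 to 10531064) and Cd74 on chromosome 18. Values below are log2 expression levels by robust multi-array average (RMA), in which 1 unit is a doubling of the hybridisation signal. Levels of different probe sets are not compared, nor are levels of liver and muscle, which were normalised separately. A probe set was kept for testing when its highest value of the 6 in a tissue reached 4.60 in liver or 4.49 in muscle, which left 29274 probe sets in each tissue and 12 of the 14 class II probe sets in each.

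Some arrays stood apart before any class II gene is considered. In liver, NP+tau replicate 1 had a median absolute deviation of 0.450 from the median array, against 0.0769 to 0.169 for the other 5 arrays. In muscle, NP+tau replicate 3 carried high lymphocyte transcripts, described with the muscle results. The methods describe each group as holding both sexes, but the female-specific Xist was high in all 3 NP animals and in NP+tau replicate 1 (10.85 to 11.78), and low in NP+tau replicates 2 and 3 (5.07 to 5.96), in which the Y-linked Eif2s3y was high. Values with the Xist level in the fit are given after the counts for each tissue. Because only NP+tau samples were low in Xist, the diet difference in that fit rests mainly on NP+tau replicate 1 against NP. Sex and diet can hardly be told apart in these samples, and the part of sex was not otherwise tested.

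In liver, the genes of the class II molecule and of the invariant chain were lower in the offspring of taurine-supplemented dams, with mean differences between 0.52 and 1.71 on the log2 scale below NP for the brightest probe set of each. Ciita showed no such difference. H2-Aa, the α chain of I-A, had levels of 8.48, 7.56 and 7.19 in NP replicates 1, 2 and 3 and 5.91, 5.39 and 6.79 in NP+tau replicates 1, 2 and 3 on its brightest probe set. Every NP+tau liver was thus below every NP liver, by a gap of 0.40 between the nearest samples, and the spread inside each group was wide. The mean difference was -1.71 (standard error 0.45, n = 3 per group), a 3.27-fold lower signal.

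H2-Ab1 encodes the β chain that pairs with it. Its brightest probe set read 7.46, 6.57 and 6.37 in NP and 5.98, 5.65 and 6.02 in NP+tau. The groups did not overlap, the lowest NP liver standing 0.35 above the highest NP+tau liver, and the difference was -0.92 (standard error 0.31). Cd74, the invariant chain, read 8.55, 7.77 and 7.43 in NP and 6.97, 6.03 and 7.14 in NP+tau. Again NP replicate 1 was the highest and NP+tau replicate 2 the lowest, with a difference of -1.20 (standard error 0.39), a 2.30-fold lower signal and no overlap.

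H2-Eb1, the β chain of I-E, read 7.20, 6.47 and 6.30 in NP and 6.39, 5.83 and 6.19 in NP+tau. These groups overlapped, since NP+tau replicate 1 exceeded NP replicate 3, and the difference was -0.52 (standard error 0.29). H2-DMa is the α chain of the peptide exchanger H2-DM and is not itself a presenting molecule. Its brightest probe set read 7.12, 5.75 and 5.64 in NP and 5.61, 4.97 and 5.34 in NP+tau, a difference of -0.86 (standard error 0.42). The groups were separate, but by only 0.03, and NP replicate 1 alone lay far above the other 5 livers.

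Ciita, whose product is the master co-activator of the class II promoters, read 4.53, 4.69 and 4.39 in NP and 4.73, 4.39 and 4.64 in NP+tau. The groups overlapped fully, and the difference was 0.05 (standard error 0.18). These levels sat at the limit for keeping a probe set, so the array had little room to show a lower level of Ciita.

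**Figure D1:**
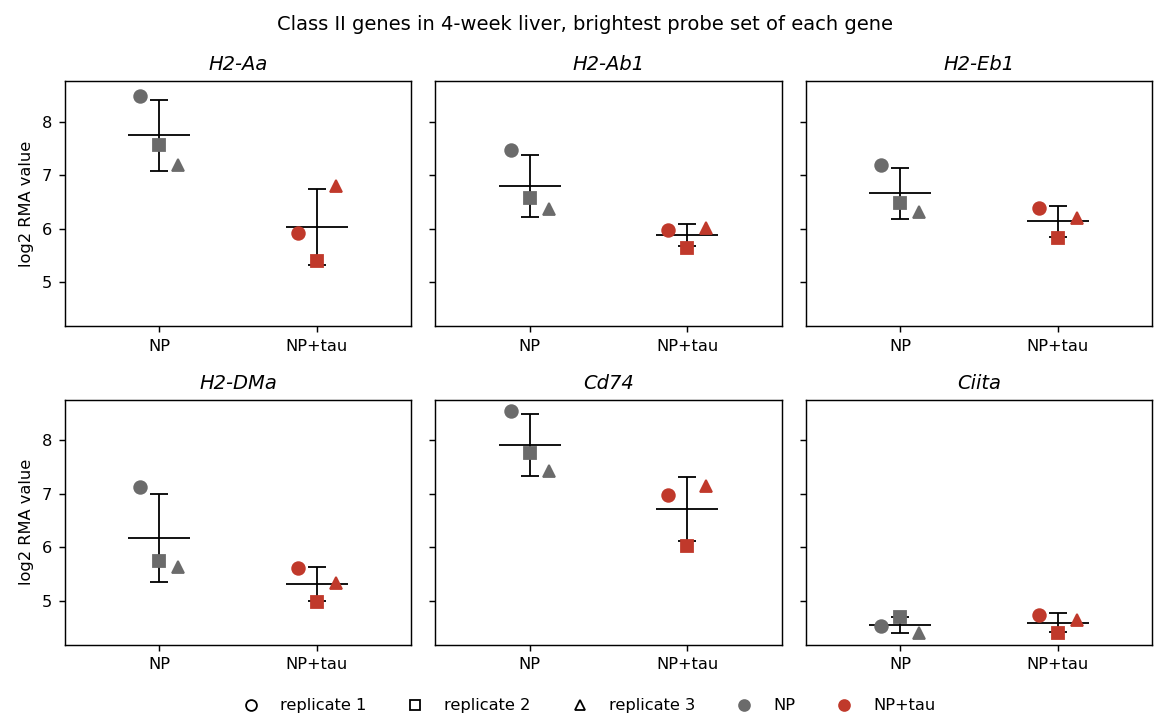
Log2 RMA level (vertical axes, on 1 scale) of the brightest probe set of each class II gene in liver, with each symbol a sample, horizontal bars the group means and error bars the standard deviation of 3 samples. NP samples are grey and NP+tau samples red. H2-Aa (NP 7.19 to 8.48, NP+tau 5.39 to 6.79), H2-Ab1, Cd74 and H2-DMa show no overlap between the groups, H2-Eb1 a slight one, and Ciita a full one.

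Of the 14 liver probe sets, 10 had means lower and 4 higher in NP+tau, where 54.2% of all kept probe sets had a lower mean. Every NP+tau liver was below every NP liver in 7, of which 6 were kept, and in 4 when each array was centred on the median of its kept probe sets. Over all 29274 kept probe sets that pattern occurred in 9.11%, and the reverse pattern, found in none of the class II probe sets, in 5.73%. The median difference over the brightest probe sets of the 6 genes was -0.89, against -0.04 over all kept probe sets. With the mean over all probe sets of a gene in place of the brightest, the median was -0.52, with H2-Aa at -0.82 and H2-DMa at -0.15. None passed limma with Benjamini-Hochberg adjustment (adjusted p from 0.718 to 0.942), nor did any of the 29274 probe sets tested (0% called). At an unadjusted p under 0.05, 5 of the class II probe sets were lower and 0 higher, against 3.99% lower and 0.7% higher of all kept probe sets. Because the genes were picked with the liver values in view, these counts are not evidence on the members as a group.

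Probe sets of the same gene did not always give the same picture. For H2-Aa, 2 further kept probe sets differed by -0.91 (standard error 0.25) and -0.57 (standard error 0.24) with no overlap, and the remaining one was below the limit in liver at about 3.27 to 3.44. For H2-Ab1, 1 probe set differed by -0.62 (standard error 0.33) with overlapping groups and another by -0.05 (standard error 0.25). The second H2-DMa probe set went the other way, at 4.87, 5.67 and 5.22 in NP and 6.29, 5.42 and 5.75 in NP+tau, a difference of 0.57 (standard error 0.30) with overlap. The second Ciita probe set differed by 0.36 (standard error 0.24), also with overlap, and the third was below the limit. Neither of the upward probe sets separated the groups.

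The highest value among the 6 livers fell on NP replicate 1 in 9 of the 14 probe sets, and the lowest on NP+tau replicate 2 in 8. Without NP replicate 1 the median over the 6 genes was -0.49, H2-Eb1 differed by -0.25, H2-DMa by -0.39 and H2-Ab1 by -0.59, while H2-Aa still differed by -1.34 and Cd74 by -0.88. Leaving out the outlying NP+tau replicate 1 gave a median of -0.99, and leaving out both replicate 1 livers gave -0.59. Fitted with Xist as a covariate, which leaves the diet difference mainly to NP+tau replicate 1 against NP, the median was -0.69. In that fit H2-Aa differed by -1.97 (standard error 0.72), Cd74 by -1.01 (standard error 0.63), H2-Ab1 by -0.83 (standard error 0.48), H2-DMa by -0.54 (standard error 0.65) and H2-Eb1 by -0.26 (standard error 0.42). The differences of H2-DMa and H2-Eb1 were then smaller than their standard errors.

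Markers of the cells that carry class II molecules were read in the same livers. All 20 macrophage and Kupffer cell genes of the list were lower in NP+tau, with a median of -1.10 and none past the adjusted threshold. Of these, 11 lay wholly below NP. Over all kept liver probe sets, 9.11% lay wholly below NP and 54.2% had a lower mean. The summed level of the macrophage list ranged from 13.59 to 14.58 in the NP livers against 12.53 to 13.47 in the NP+tau livers. Marco, a scavenger receptor of Kupffer cells, differed by -2.04 (standard error 0.41), and C1qa, a complement chain made by macrophages, by -1.21 (standard error 0.31). The 8 general leukocyte genes were likewise all lower, with a median of -1.45 and summed levels of 10.33 to 12.24 for NP against 9.22 to 9.91 for NP+tau. B cell genes (4 of 11 above the limit, summed level 7.87 to 7.92 for NP against 7.89 to 8.13 for NP+tau, median difference 0.12), dendritic cell genes (8 of 11, median 0.07) and T and NK cell genes (8 of 11, median 0.05) showed no such shift, with Cd79a, part of the B cell receptor complex, at 0.13 (standard error 0.18) and the dendritic integrin Itgax at -0.36 (standard error 0.23). Mean levels of the B cell, dendritic cell and T and NK cell lists were 4.33 to 4.84, near the limit of 4.60. The array thus had little room to show these lists lower. Neutrophil genes had a median difference of -1.48, monocyte genes one of -0.92 and erythroid genes one of -1.01, with all 7 erythroid genes lower and summed levels of 11.53 to 11.77 for NP against 10.88 to 11.41 for NP+tau.

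NP replicate 1, the highest liver for most class II probe sets, was also the highest in all 8 general leukocyte genes, and its summed neutrophil and monocyte levels were 14.24 and 11.66, against 10.46 to 10.63 and 9.22 to 9.29 in the other NP livers. Without it the median differences were -0.82 for macrophages and Kupffer cells, -0.91 for general leukocytes, -0.75 for neutrophils, -0.41 for monocytes and -0.40 for erythroid cells. The class II genes thus moved with the macrophage, monocyte, neutrophil, general leukocyte and erythroid lists, whose part in the class II difference was not tested.

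The genes that load class II molecules were read from a list of 15, of which 11 were kept in liver. None passed the adjusted test, 8 had a lower and 7 a higher mean, 4 kept genes lay wholly below NP and 1 wholly above, and the median was -0.27. Among all kept liver probe sets, 9.11% lay wholly below NP and 5.73% wholly above. Ctss, the cathepsin that trims the invariant chain in antigen-presenting cells, read 11.44, 9.89 and 9.95 in NP and 8.74, 8.23 and 9.19 in NP+tau. It had the lowest mean difference of the list, -1.71 (standard error 0.46), with no overlap and with NP replicate 1 again on top. Lgmn, an asparaginyl endopeptidase of the endosome, differed by -1.28 (standard error 0.52) and Ctsl, the cathepsin that takes this role in thymic epithelium, by -0.71 (standard error 0.29), both without overlap. The kept class II genes of the list did not share this direction: H2-DMb2, a β chain of H2-DM, differed by 0.37 (standard error 0.19) and H2-Eb2 by 0.08 (standard error 0.19). The probe set of H2-Ea, a gene that makes no α chain in C57BL/6 mice, read 6.05, 6.16 and 5.95 in NP and 6.77, 6.40 and 6.12 in NP+tau. Whether this signal came from H2-Ea RNA was not tested. H2-Oa and H2-Ob, the chains of the H2-DO inhibitor of H2-DM found mainly in B cells, were below the limit in every liver.

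Among the 12 factors that act at class II promoters or alongside them, all kept in liver, the mean was lower for 11 in NP+tau, with a median of -0.41. None passed the adjusted test and only Crebbp, an acetyltransferase that CIITA recruits, lay wholly below NP, at -0.67 (standard error 0.26). The share over all kept liver probe sets was 9.11%. Kat2b, another such acetyltransferase, differed by -0.43 (standard error 0.22). Rfxank, a subunit of the RFX complex, was the exception in direction, at 0.58 (standard error 0.23). The list had 1 unadjusted call in each direction, against 3.99% lower and 0.7% higher of all kept liver probe sets. Spi1, the myeloid and B cell factor PU.1, read 7.46, 5.91 and 5.82 in NP and 5.86, 4.99 and 5.69 in NP+tau. Its highest liver was NP replicate 1, and its groups overlapped. The outlying NP+tau replicate 1 was the lowest liver for Creb1, at 5.70 against 7.62 to 7.97 in the other 5, and for Nfya, at 5.22 against 6.51 to 7.07.

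Interferon gamma is the classical inducer of Ciita. Of 15 measured genes of its pathway, 11 had lower means in NP+tau livers, with a median of -0.27, 4 of the 13 kept lay wholly below NP and none passed the adjusted test. By comparison, 9.11% of all kept liver probe sets lay wholly below NP. Ifngr1, a chain of the receptor, read 8.74, 7.88 and 8.21 in NP and 7.52, 7.42 and 7.55 in NP+tau, a difference of -0.78 (standard error 0.25) without overlap. Gbp2, an induced guanylate-binding protein, differed by -1.26 (standard error 0.44), whereas Igtp, an induced GTPase, differed by 0.44 (standard error 0.23) and Gbp3 by 0.05 (standard error 0.22). Ifng itself was below the limit in every liver. The list therefore held differences in both directions and none that passed.

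MHC class I molecules, which present peptides made inside the cell, are carried by nearly all cells including hepatocytes. Their list of 14 genes, all kept, had a median of -0.16 in liver, with 9 lower and 5 higher means, 1 gene wholly below NP and none past the adjusted test. That 1 gene stands against 9.11% of all kept liver probe sets wholly below NP. B2m, the light chain of class I, differed by 0.15 (standard error 0.21) and the peptide transporter subunit Tap2 by 0.08 (standard error 0.16). Nlrc5, the class I relative of CIITA, differed by -1.03 (standard error 0.34) and Psmb8, an immunoproteasome subunit, by -0.76 (standard error 0.28), both with overlapping groups. Of 6 co-stimulatory genes, Cd86, the ligand of CD28 on antigen-presenting cells, differed by -0.65 (standard error 0.25) and Icosl, the ligand of ICOS, by -0.34 (standard error 0.20), both without overlap, and Cd40 by 0.29 (standard error 0.22), with every NP+tau liver above every NP liver.

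In muscle, the same genes had a higher mean in NP+tau, and 1 sample made most of that difference. H2-Aa read 5.46, 6.71 and 7.61 in NP replicates 1, 2 and 3 and 7.27, 6.73 and 11.25 in NP+tau replicates 1, 2 and 3. NP+tau replicate 3 lay far above the other 5 muscles, and the other pair of NP+tau samples fell inside the NP range. The mean difference was 1.83 (standard error 1.18), and 0.41 (standard error 0.60) without that sample.

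Cd74 read 6.50, 6.64 and 7.55 in NP and 7.41, 6.81 and 10.74 in NP+tau, a difference of 1.42 (standard error 0.96), and 0.22 without NP+tau replicate 3. H2-Ab1 read 5.77, 5.13 and 6.54 in NP and 6.39, 5.80 and 9.17 in NP+tau, a difference of 1.30 (standard error 0.85), and 0.28 without it. H2-Eb1 read 5.62, 5.85 and 6.25 in NP and 6.11, 5.98 and 9.12 in NP+tau, a difference of 1.16 (standard error 0.80), and 0.14 without it. All of these genes of the presenting molecule and its chaperone shared the pattern of 1 high sample with the rest intermixed.

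H2-DMa read 4.65, 4.85 and 4.75 in NP and 4.83, 4.47 and 5.65 in NP+tau. NP+tau replicate 3 was again the highest, and the difference of 0.23 (standard error 0.29) became -0.10 without it. Ciita read 4.38, 4.37 and 4.39 in NP and 4.63, 4.39 and 4.50 in NP+tau, a difference of 0.13 (standard error 0.13). Every NP+tau muscle was above every NP muscle on this probe set, the lowest barely so, but the second Ciita probe set differed by -0.22 (standard error 0.15), so no direction held for the gene.

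**Figure D2:**
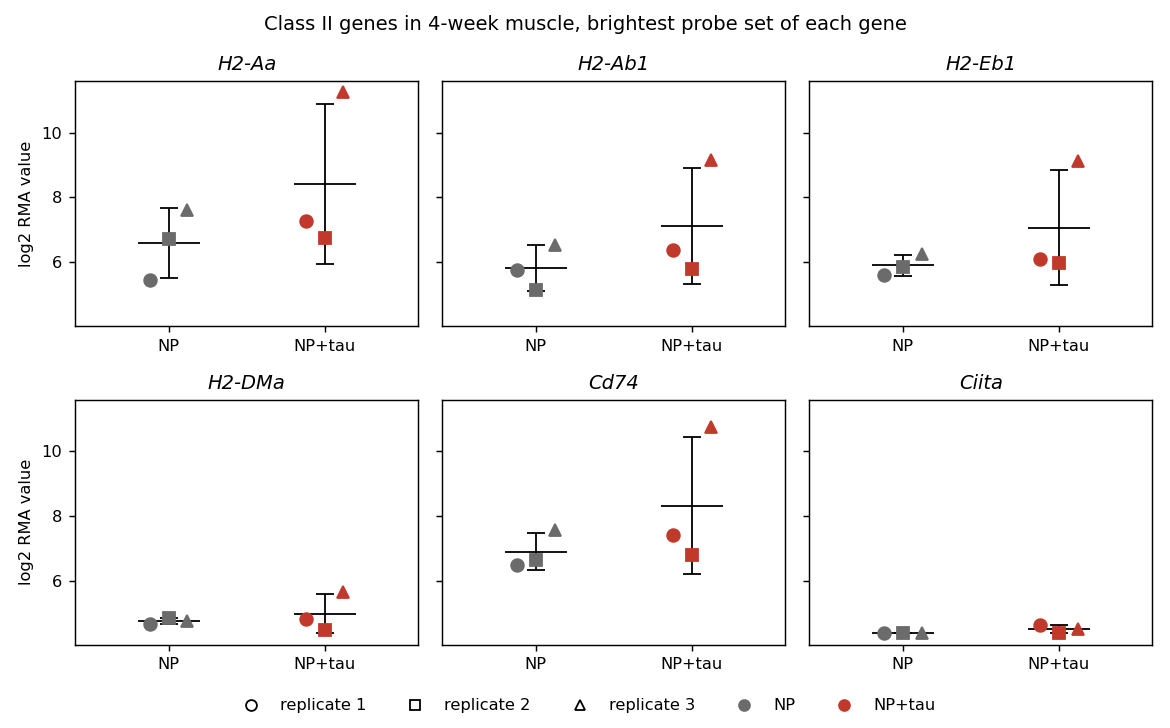
Log2 RMA level (vertical axes, on 1 scale) of the brightest probe set of each class II gene in muscle, with each symbol a sample, horizontal bars the group means and error bars the standard deviation of 3 samples. NP samples are grey and NP+tau samples red. NP+tau replicate 3 (red triangle) is the highest muscle for every gene but Ciita, reaching 11.25 for H2-Aa and 10.74 for Cd74.

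Of the 14 muscle probe sets, 12 had means higher and 2 lower in NP+tau, where 48.2% of all kept probe sets had a lower mean. NP+tau replicate 3 was the highest sample in 12. It was the highest in 20.4% of all kept probe sets, and 0.717% of them (210) were more than 2 units above the median of the other muscles. Every NP+tau muscle was above every NP muscle in 1 class II probe set, against 7.33% of all kept probe sets, and below in 0, against 7.77%. None passed the adjusted test by limma (adjusted p from 0.711 to 0.809), in which 0% of the 29274 probe sets were called, and 0 reached an unadjusted p under 0.05, against 3.72% higher and 2.4% lower of all. The median over the 6 genes was 1.23, against 0.01 over all kept probe sets, and it was 0.18 without NP+tau replicate 3. Fitted with Xist as a covariate, the median was 0.31, H2-Aa differed by 0.53 (standard error 1.69), H2-Ab1 by 0.46 (standard error 1.25), Cd74 by 0.38 (standard error 1.39), H2-Eb1 by 0.08 (standard error 1.08) and H2-DMa by 0.03 (standard error 0.44). Each of these 5 was smaller than its standard error. That fit rests mainly on NP+tau replicate 1 against NP, since the Xist term takes up the Xist-low NP+tau samples, replicate 3 among them.

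**Figure D3:**
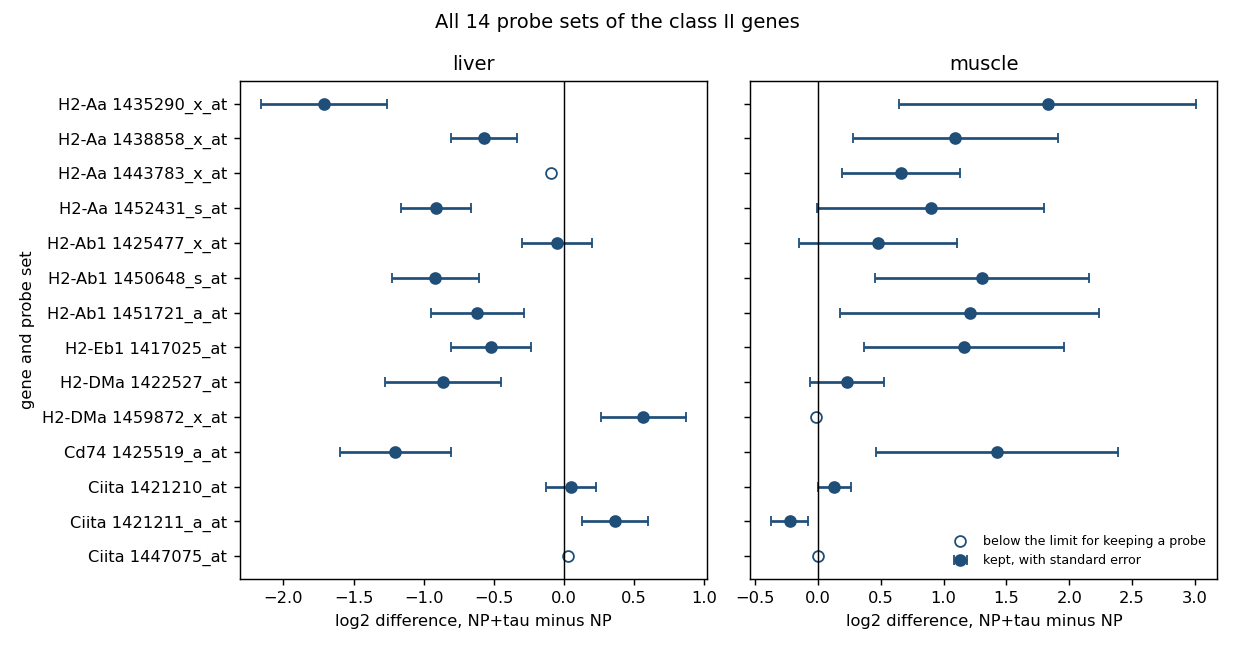
Log2 difference NP+tau minus NP (horizontal axes) of all 14 class II probe sets in liver (left) and muscle (right), with filled points for kept probe sets, bars for the standard error of the limma fit, and open points for probe sets below the limit. In liver 10 lie below 0, reaching -1.71 for H2-Aa, and in muscle 12 lie above 0, reaching 1.83 for H2-Aa with a standard error of 1.18.

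The same muscle sample carried high transcripts of B lymphocytes, for which the genes named here were chosen after its values were seen. Ms4a1, which encodes CD20, read 8.86 in NP+tau replicate 3 and 3.76 to 4.03 in the other 5 muscles. Cd79b, part of the B cell receptor complex, read 8.62 against 4.31 to 5.02, and Pou2af1, a B cell co-activator, 7.77 against 3.36 to 3.74. Of the 11 B cell genes, all kept in muscle, the sample was the highest in 10, by a median of 3.29 over the median of the others, and the summed level of the list was 11.24 in it against 8.69 to 9.02 in the rest. The T cell receptor chains Cd3d and Cd3g read 7.33 and 6.64 in it, against 4.35 to 4.86 and 4.16 to 4.32, and the pan-leukocyte Ptprc 10.04 against 4.78 to 7.35.

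Over the 11 T and NK cell genes the sample was the highest in 7, with a summed level of 9.56 against 8.08 to 8.80. Of the 11 dendritic cell genes it was the highest in 5, with a summed level of 9.52 against 7.97 to 8.39, while the list had 6 lower and 5 higher means in NP+tau. In that list 1 kept gene lay wholly above NP and 1 wholly below, the latter Clec10a, a lectin of dendritic cells and macrophages, at -0.79 (standard error 0.26). Among all kept muscle probe sets, 7.33% lay wholly above NP and 7.77% wholly below. Of 7 erythroid genes NP+tau replicate 3 was the highest in 5, with a summed level of 13.34 against 11.51 to 13.12 in the others. Their mean level was 8.76 in that sample and 5.73 to 7.08 in the others. Without it the median difference of the general leukocyte list turned from 0.41 to -0.48, that of B cells from 0.97 to -0.14 and that of erythroid cells from 0.51 to -0.43. Muscle NP replicate 3 also had high leukocyte transcripts. Its summed general leukocyte level was 10.89, against 12.27 in NP+tau replicate 3 and 8.98 to 9.56 in the rest. The mean level of the neutrophil list was 9.14 in it, 7.62 in NP+tau replicate 3 and 5.46 to 7.13 in the rest. The neutrophil and monocyte lists had median differences of -0.10 and -0.16 in muscle. The part of NP replicate 3 in the list differences was not tested.

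H2-Ob and H2-Oa, which no liver showed above the limit, read 6.74 and 6.22 in muscle NP+tau replicate 3. They read 3.32 to 3.61 and 4.29 to 4.59 in the other muscles. The sample thus had high transcripts of the B cell inhibitor H2-DO beside those of the class II chains, and the H2-Ob means differed by 1.16 (standard error 0.82) between the diets. Cd83, a surface protein of mature antigen-presenting cells that stabilises class II, read 5.55 in it and 3.97 to 4.42 in the others. Irf8, a factor of B cells and myeloid cells, read 8.21 against 5.58 to 6.64. The macrophage list did not stand apart there: NP+tau replicate 3 was the highest in 3 of its 20 genes. The summed level of that list was 11.77 in it, 11.15 and 11.30 in the other NP+tau muscles, and 11.21 to 12.06 in NP. The part of lymphocyte RNA in the muscle differences was not tested, but without this sample the differences were those given above.

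**Figure D4:**
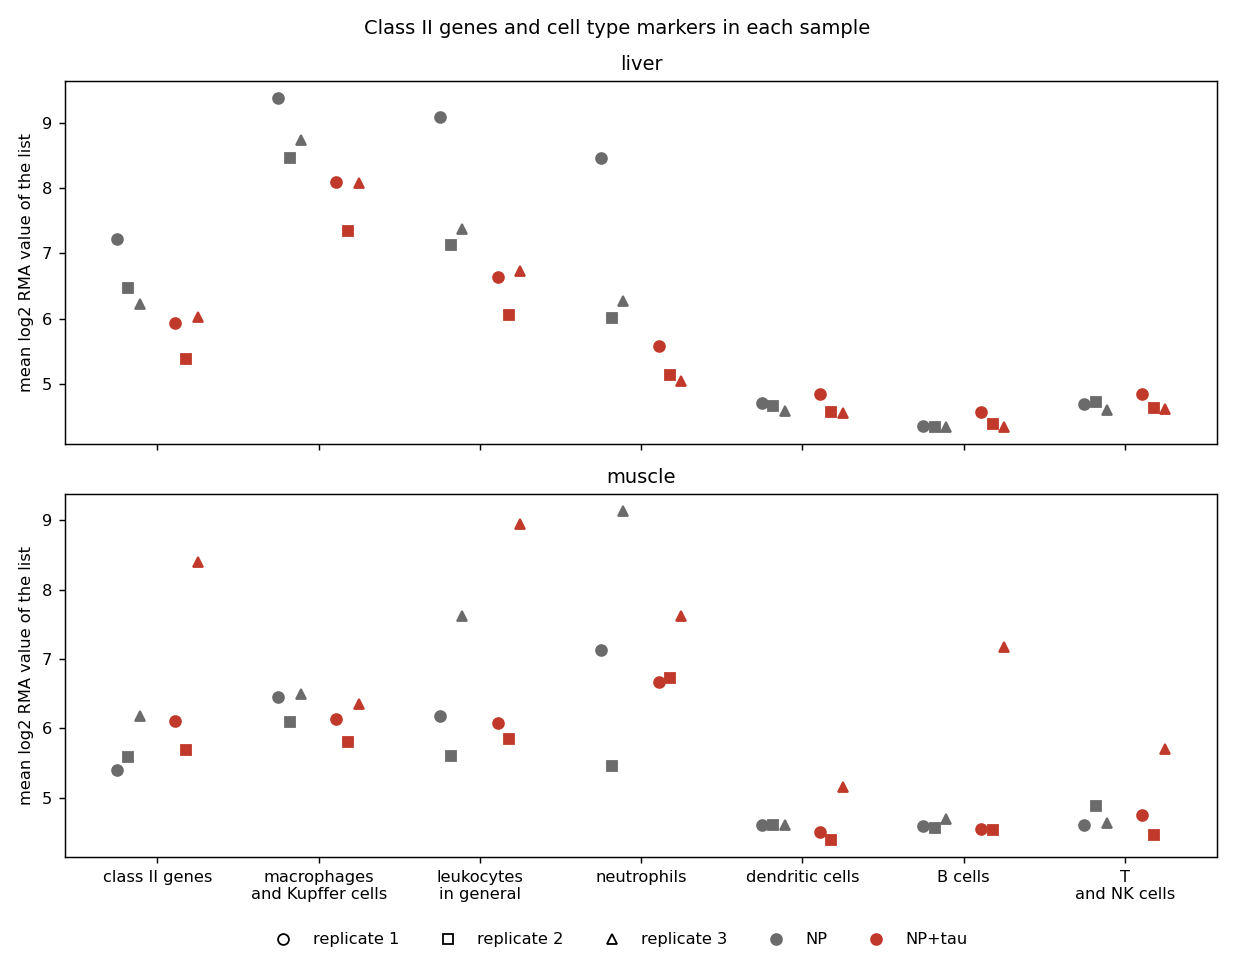
Mean log2 RMA level (vertical axes) over the class II genes and over 6 lists of cell type markers in each liver (top) and each muscle (bottom), each symbol a sample, with NP in grey and NP+tau in red. In liver the class II mean is lower in NP+tau together with those of macrophages (NP 8.47 to 9.39, NP+tau 7.35 to 8.09) and leukocytes in general, and in muscle NP+tau replicate 3 stands above the rest for class II genes, leukocytes in general and B cells (7.18 against 4.54 to 4.69).

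The pathway lists in muscle held no call either. Of 15 interferon gamma genes, 14 had a higher mean in NP+tau, with a median of 0.22, and Gbp2, at 4.95, 5.13 and 5.70 in NP and 5.75, 5.96 and 6.04 in NP+tau, differed by 0.66 (standard error 0.22) without overlap. Gbp3, a related protein, differed by 0.63 (standard error 0.27), and Socs1, a feedback inhibitor of the pathway, had a mean of 4.33 in both diets. The Gbp2 separation did not come from NP+tau replicate 3 alone. Without that sample the median of the interferon gamma list was 0.08, with 4 lower and 11 higher means. All 14 class I genes had higher means, with a median of 0.35 and differences of 0.44 (standard error 0.19) for the loading chaperone Tapbp and 0.51 (standard error 0.23) for the trimming peptidase Erap1, and NP+tau replicate 3 was the highest in 10 of them. H2-K1, a class I heavy chain, read 10.99 in it and 9.12 to 9.70 in the others. Without that sample the class I median was 0.13, with 3 lower and 11 higher means. Among the promoter factors 7 were higher and 5 lower, with a median of 0.09, and Nfya, the DNA-binding subunit of NF-Y, differed by 0.59 (standard error 0.24), Creb1 by 0.36 (standard error 0.22), Kat2b by -0.34 (standard error 0.20) and Rfx5 by -0.27 (standard error 0.27). The accessory and processing list had 7 higher and 8 lower, with a median of -0.01, including the H2-Ea probe set at -0.18 (standard error 0.17) and H2-Eb2 at -0.12 (standard error 0.22). The co-stimulatory list had 1 higher and 5 lower, with a median of -0.03. It included Cd86 at -0.11 (standard error 0.18), Cd274, the ligand of PD-1, at -0.04 (standard error 0.14) and Icosl at 0.15 (standard error 0.27).

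The opposite mean directions in liver and muscle were tested as an interaction over the 25622 probe sets kept in both tissues, of which 0% were called and 7.8% had an unadjusted p under 0.05. Of the 11 class II probe sets tested, 0 were called by limma (adjusted p from 0.542 to 0.863) and 3 had an unadjusted p under 0.05. For H2-Aa the liver difference minus the muscle difference was -3.54 (standard error 1.39). That fit took the arrays as independent, and with the tissues matched by replicate number the standard error was 1.07. The muscle difference within it was 1.83, but 0.41 without NP+tau replicate 3, and no interaction was fitted without that sample. The tissues came from the same animals, but the labels do not say that equal replicate numbers mark the same animal. Muscle NP+tau replicate 3 was the highest muscle in 12 probe sets, and liver NP+tau replicate 3 the highest liver in 0.

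Within the groups, the class II genes varied together across samples. After removal of each group mean, the 6 pairs among H2-Aa, H2-Ab1, H2-Eb1 and Cd74 had Pearson correlations of 0.91 to 0.98 over the 12 samples, and of 0.65 to 0.92 over the 11 samples without muscle NP+tau replicate 3. H2-DMa correlated with these genes at 0.70 to 0.75 over the 12 samples and Ciita at 0.11 to 0.23. Without that muscle these ranges were 0.56 to 0.86 and 0.33 to 0.58. In both sets Ciita followed the presenting chains least closely. Its brightest probe set stayed near the limit, at 4.39 to 4.73 in liver and 4.37 to 4.63 in muscle. The low correlations therefore cannot tell whether Ciita RNA varied with the other genes. The samples of a tissue share their normalisation and the 2 tissues their animals, so these correlations are descriptions. Among 12797 other genes, those most like the class II mean over the 12 samples were Fam111a (0.985), Nckap1l (0.977), Cd53 (0.971), Zc3hav1 (0.970) and Lrmp (0.969). Of these, at least Nckap1l and Cd53 are known as leukocyte genes. Without muscle NP+tau replicate 3, an exclusion chosen after its values were seen, the 5 were others: Sri (0.969), Atp8b2 (0.968), Lhfp (0.963), Adcy7 (0.952) and Prex1 (0.949).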

How the data were processed

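Total RNA of liver and quadriceps muscle from 4-week-old offspring was hybridised to Affymetrix mouse expression arrays, 12 in all. The deposited values are log2 expression levels that the authors obtained by quantile normalisation and RMA, per the labels separately for liver and for muscle. The arrays' own background is not in these values, and the number of arrays limits the precision. Of 45101 probe sets, 64 controls were removed. The annotation gave 34958 probe sets a single symbol, 932 several and 9211 none, and only the first were named.

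A probe set was kept where its highest of 6 values reached the 35th percentile of these highest values. Each tissue was fitted with limma (version 3.58.1, R 4.3.3) for NP+tau against NP, with Benjamini-Hochberg adjustment over all kept probe sets at 0.05, after a test on simulated data, and the difference between tissues as an interaction. The brightest probe set (highest mean in the tissue) stood for a gene in medians, lists and correlations. A summed level is the log2 of the summed linear values of a list. Named genes were all members, the 2 lower and 2 higher genes of each pathway list with the smallest unadjusted p in a tissue, up to 2 of a cell type list by the same p, and the 5 genes most like the class II mean. Others named for their role or their level in 1 sample were chosen after their values were seen. Members, lists and tests were chosen with earlier results of these data known. Alternatives were other filters, an intensity trend, array weights, centred arrays, means over probe sets, an Xist covariate, a replicate block and leaving out samples. Leaving samples out of the marker and pathway lists was chosen after seeing the data. No sample was left unassigned.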

Additional observations from a re-analysis of the deposited data

How the results depend on the processing

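The directions of the class II medians, negative in liver and positive in muscle, held under every alternative run, with a liver median of -0.52 when probe sets of a gene were averaged. Leaving out 1 sample at a time gave liver medians from -1.13 to -0.49 and muscle medians from 0.18 to 1.84, the lowest without NP+tau replicate 3. The 7 liver probe sets without overlap became 4 when arrays were centred on the median of kept probe sets and 7 to 9 with 1 sample left out, and the corresponding muscle count of 0 became 0 to 1 (1 without NP replicate 3, and 1 without NP+tau replicate 2). Calls over all kept liver probe sets, 0 as reported, were 8 with array weights, 10 without NP replicate 1 and NP+tau replicate 1, and 0 to 9 with 1 sample left out (9 without NP+tau replicate 1, 1 without NP replicate 3). They were 9449 with the Xist covariate, where H2-Aa had an adjusted p of 0.0873 by limma. The Xist fit sets mainly the outlying liver NP+tau replicate 1 against NP, so its values are not a sex-adjusted result from 3 animals per group. In muscle the calls were 0 to 8 with 1 sample left out (8 without NP+tau replicate 1). The causes of these changes were not tested.

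Filters, the intensity trend and the replicate block leave a mean difference as it is. Under the other alternatives, values of single genes kept their direction in 120 recomputations and reversed in 6. Liver Ciita was -0.032 with array weights, -0.027 without both replicate 1 livers and -0.024 to 0.15 with 1 sample left out (-0.024 without NP replicate 3 and without NP+tau replicate 1). Muscle Ciita was -0.030 as the mean over its probe sets, and muscle H2-DMa -0.10 to 0.49 with 1 sample left out (-0.10 without NP+tau replicate 3). The replicate numbers do not pair the animals, since every pup had its own dam and same-numbered samples correlated from -0.11 to 0.11 in liver and from -0.27 to 0.33 in muscle. A replicate block cannot move the medians (-0.89 and 1.23) or the counts without overlap (7 and 0) in this balanced design, and with it the calls were 0 in each tissue and 0 in the interaction. With 3 animals per group, Ciita and other probe sets near the limit could show little downward difference.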
